A study of Homo sapiens with 4 samples.

Results

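The comparison described here is the change in gene expression between 6 h and 24 h of exposure to C646 in WM35 cells, read beside the change over the same hours in cells given the solvent alone. It was taken from 2 of the 4 arrays of the series, the C646 array of 24 h minus the C646 array of 6 h, and the other 2 arrays gave the same difference for DMSO. WM35 is an established human melanoma cell line from the radial growth phase. All cultures were grown in DMEM with 10% serum, and received either 20 µM C646 or 0.2% DMSO for 6 h or 24 h. Each condition was measured on 1 Affymetrix Human Exon array, so the differences have no replicate check, no error and no p-value, and what separate cultures would vary by is not known. Values are log2 expression values, and a difference of 1 on that scale is a 2-fold difference. The comparison covers the 16579 of 27631 probe sets whose mean over the 4 arrays lay at or above the 40th percentile, 3.96. Among them, 10707 genes carried a symbol of their own, and the counts of genes refer to these.

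C646 is a small-molecule inhibitor of p300 and CBP, acetyltransferases that transfer acetyl groups to histones and to other proteins and act as coactivators of many transcription factors. Genes for DNA synthesis are transcribed late in G1 by E2F factors, and genes for mitosis are transcribed in G2 by complexes of B-MYB, FOXM1 and the MuvB core. When cells leave the cycle, repressor complexes with pocket proteins occupy both groups of genes. The tumour suppressor p53 activates genes for cell cycle arrest, cell death and DNA repair, among them the gene of its own ubiquitin ligase, MDM2.

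The C646 array of 24 h stood apart from the others before any gene was compared. It correlated with the other 3 arrays at 0.975 to 0.979 over all probe sets, whereas those 3 correlated with each other at 0.991 to 0.996. Every C646 difference below rests on that array, and whether drug exposure, culture or array set it apart cannot be told apart with 1 array per condition. Of 8 melanocyte markers, the 6 with a probe set of their own all passed the filter, with medians of 7.34 and 7.16 on the DMSO arrays and 7.85 and 7.73 on the C646 arrays of 6 h and 24 h. Markers of keratinocytes, fibroblasts, leukocytes and endothelium had medians between 3.56 and 3.93 on every array, and most lay under the filter. Of these markers 10 passed it. On the C646 array of 24 h KDR was at 8.35, CD68 at 7.77, KRT10 at 5.98, LUM and FAP at 5.71, CLDN5 and IVL at 4.64, SFN at 4.29, COL1A1 at 4.08 and CD8A at 3.99. In a bulk sample, fewer cells of a kind and less RNA per cell cannot be told apart.

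Between 6 h and 24 h of C646, genes of the dividing cell were lower and p53 target genes were higher. At least 2-fold lower at 24 h were 295 of 10707 genes (2.76%), and at least 2-fold higher were 76 (0.71%). In DMSO, over the same hours, 7 genes were at least 2-fold lower (0.0654%) and 5 at least 2-fold higher (0.0467%). Over probe sets, the counts were 399 lower and 144 higher with C646 (2.41% and 0.869%), and 15 lower and 9 higher with DMSO (0.0905% and 0.0543%). The median absolute change over all named genes was 0.16 with C646 and 0.080 with DMSO, and the median change was 0.016 and -0.014. The lower side reached further: 83 genes were at least 4-fold lower and 13 at least 8-fold lower, against 5 and 0 on the higher side. On the C646 array of 24 h, 29 of the 295 lower genes read below the filter level. None of the 76 higher genes read below that level on all 3 other arrays. The filter used the mean over the 4 arrays, so a high value at 24 h of C646 could still carry a gene past it. FAM169A-AS1, for example, read 3.80 and 4.00 with DMSO and 3.83 and 5.57 with C646.

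The vehicle change ran the same way for most of these genes and was smaller. The genes were picked by a C646 change of at least 2-fold, so a smaller DMSO change follows in part from that choice. Over all named genes, without such a choice, the median absolute change was 0.16 with C646 and 0.080 with DMSO. Of the 295 lower genes, 266 (90.2%) were also below 0 in DMSO, with a median of -0.19 there against -1.62 with C646. Of the 76 higher genes, 62 (81.6%) were also above 0 in DMSO, with a median of 0.22 against 1.31. Over all named genes, 45.3% were above 0 in DMSO and 52.7% with C646. Across the 10707 genes both changes correlated at r = 0.341 and rho = 0.326, a description over genes that share arrays and are not replicates. With the DMSO change subtracted, 268 genes were at least 2-fold lower (2.5%) and 69 at least 2-fold higher (0.644%), and 252 of the 295 and 47 of the 76 stayed past 2-fold. The corresponding counts of probe sets were 364 (2.2%) and 156 (0.941%).

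**Figure D1:**
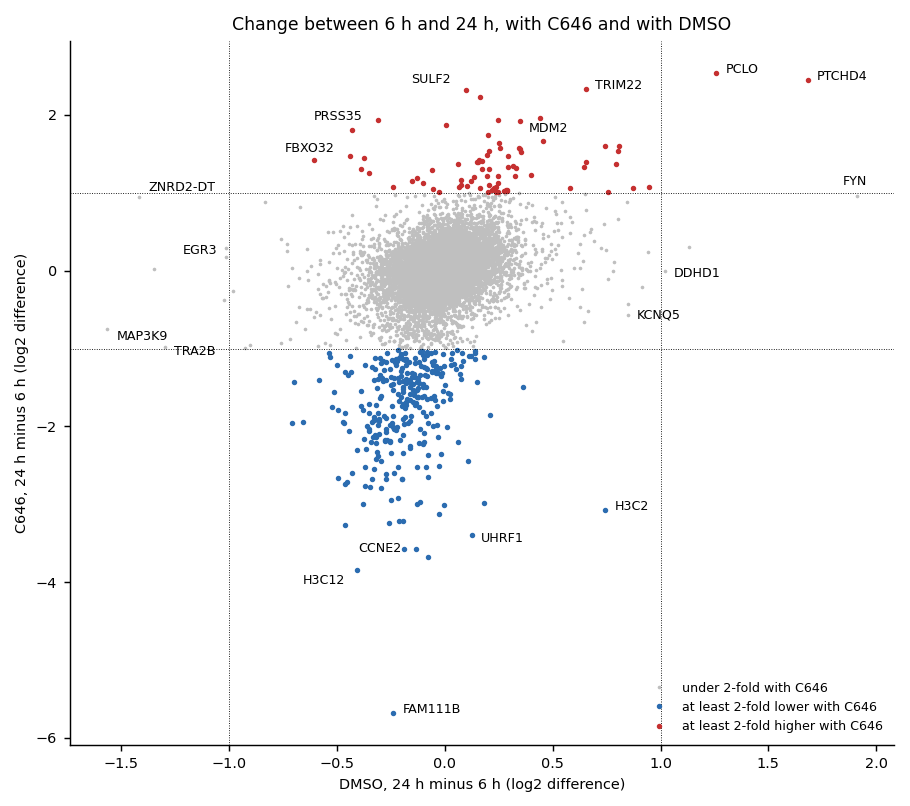
Change from 6 h to 24 h of each of 10707 named genes, as log2 differences, with DMSO on the horizontal axis and C646 on the vertical axis; each point is a gene, dotted lines mark 2-fold, blue marks the 295 genes at least 2-fold lower and red the 76 at least 2-fold higher with C646. The cloud is much taller than wide, most blue points lie left of 0, H3C2 lies far to the right among them, and PCLO and PTCHD4 are past 2-fold with either treatment.

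The gene with the largest change was FAM111B, which encodes a trypsin-like protease. It read 9.45 and 9.21 with DMSO at 6 h and 24 h, and 9.47 and 3.80 with C646. The C646 array of 6 h was level with both vehicle arrays, and the array of 24 h lay near the bottom of the scale, a change of -5.67 against -0.24 in DMSO. The cyclin gene CCNE2, whose product drives entry into S phase, read 8.50 and 8.36 with DMSO and 8.26 and 4.69 with C646 (change -3.57). CDC25A, the phosphatase that activates the cyclin-dependent kinases of that step, read 7.30 and 7.05 with DMSO and 7.06 and 3.83 with C646 (change -3.24). For both genes 3 arrays lay close together and the C646 array of 24 h lay far below.

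Other genes among the 15 lowest were E2F8, an E2F family repressor, at -3.21, TICRR, which helps to fire replication origins, at -3.12, the kinesin gene KIFC1 at -2.99 and the cyclin gene CCNA2, which read 8.94 at 6 h and 5.94 at 24 h of C646. UHRF1, which guides maintenance DNA methylation, was at -3.39 and DEPDC1 at -3.27. The probe sets of UHRF1 and DEPDC1 carry numbers among those of another chromosome than their gene's, as 528 of the 10707 genes do, and their other probe sets, numbered on the right chromosome, were at -2.74 and -1.95. KLHL23, next after the 15, was at -2.98, but its second probe set was at -0.36, so the probe sets of that gene disagree. The remaining genes of the 15 were histone genes, described further down.

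**Figure D2:**
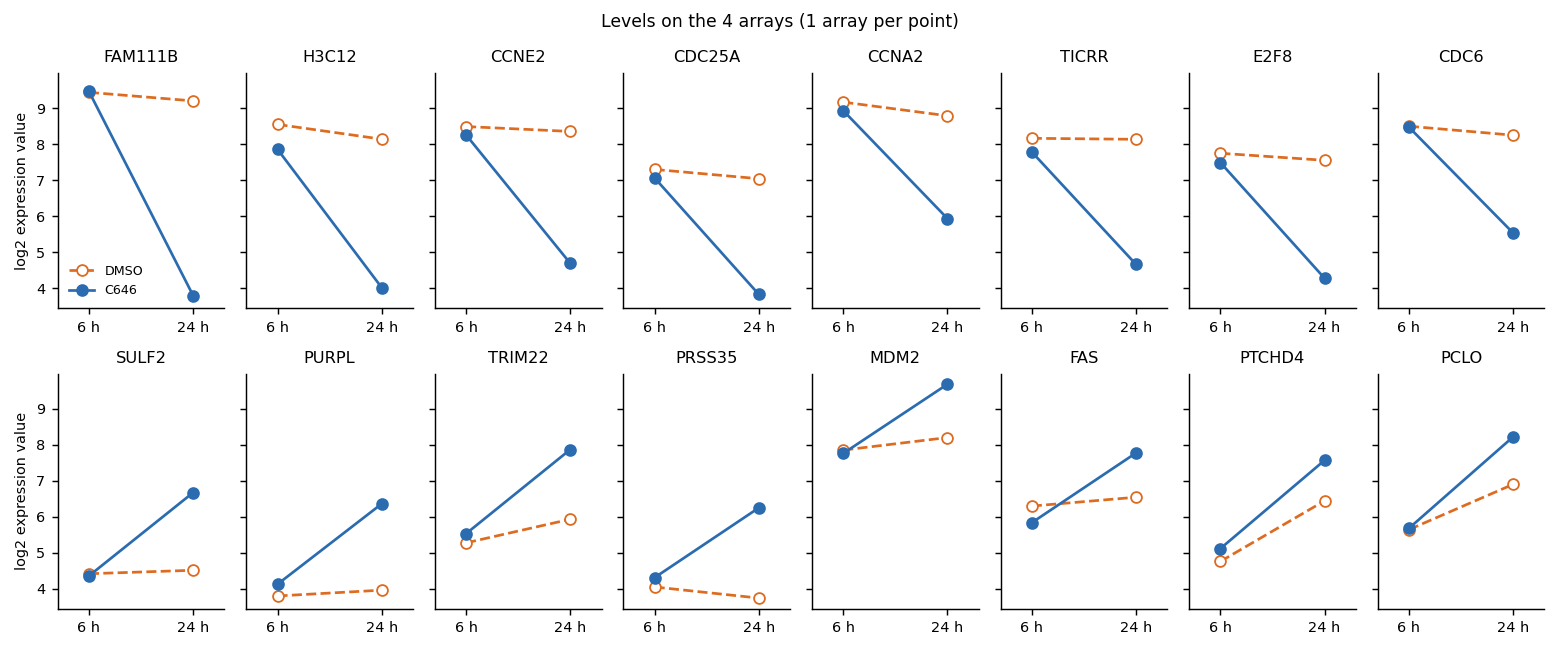
Log2 expression values of 8 genes that were lower (upper row) and 8 that were higher (lower row) at 24 h than at 6 h of C646, on each of the 4 arrays; open circles with dashed lines are DMSO, filled circles with solid lines are C646, and each point is 1 array. In the upper row the C646 array of 24 h lies below the other 3 in every panel, by the most for FAM111B; in the lower row it lies above them, and for PTCHD4 and PCLO the DMSO line rises as well.

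Gene lists were counted against the shares of all genes given above. The 14 lists that cover DNA synthesis, the cell cycle machinery, mitosis, histones, their chaperones and recombination repair hold 234 measured genes. Of these, 154 (65.8%) were at least 2-fold lower, and they made up 52.2% of all 295 lower genes. Only CDKN1A among the 234 was at least 2-fold higher, and 135 of the lower genes were on none of the lists used here. The lists were drawn up with earlier results of these data known, so the direction of their change is not independent evidence.

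Origin licensing loads the MCM helicase on DNA before S phase. Of 15 measured licensing genes, 10 were at least 2-fold lower and the median was -1.72, against -0.16 in DMSO. The loader gene CDC6 read 8.50 and 8.26 with DMSO and 8.48 and 5.54 with C646, so that only the C646 array of 24 h was low. MCM4 was at -2.68, ORC1 at -2.61, MCM10 at -2.52, MCM6 at -2.19, MCM2 at -2.11, MCM3 at -2.04 and MCM5 at -1.72. GMNN, the inhibitor of relicensing, was at -1.64 and CDT1 at -1.06. Of the other origin recognition subunits, none was past 2-fold by its brightest probe set, with ORC2 at 0.033, ORC3 at -0.42, ORC4 at 0.20 and ORC5 at -0.22. The brightest ORC6 probe set was at 0.041 but is numbered on another chromosome, as are 4 dimmer ones between -0.020 and 0.38, and the one on the right chromosome was at -1.35.

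Origin firing and fork protection genes were lower throughout: 11 of 14 were at least 2-fold lower, the median was -1.60 (DMSO -0.17) and the least lowered, the kinase gene CDC7, was at -0.75. After TICRR came the checkpoint mediator CLSPN at -2.68, CDC45 at -2.27 and the GINS genes GINS2 at -1.92 and GINS1 at -1.69. Polymerases, primase and the clamp loader included 9 of 17 past 2-fold on the lower side, and the median was -1.33. FEN1, the flap endonuclease, was at -2.18, POLE2 at -1.71 and PRIM1 at -1.66, while POLD2 was at -0.33 and the clamp gene PCNA at -0.38, the latter and FEN1 from probe sets numbered on another chromosome. Nucleotide synthesis genes were lower to a smaller extent, with a median of -0.78 and 4 of 15 past 2-fold. These were the ribonucleotide reductase subunits RRM2 at -2.10 and RRM1 at -1.45, thymidine kinase TK1 at -1.25 and PPAT at -1.56. A PPAT probe set on the right chromosome was at -0.60.

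Of 15 measured cyclins, cyclin-dependent kinases and their phosphatases, 8 were at least 2-fold lower. They included CDK1 at -1.94, CCNB1 at -1.92, CCNB2 at -1.87 and CCNE1 at -1.65, beside CCNE2, CCNA2 and CDC25A. The S phase kinase gene CDK2 was at -0.60, CDC25B at -0.76 and CDC25C at -0.80, while the G1 genes CCND1 (cyclin D1), CDK6 and CCND3 (cyclin D3) were at 0.14, 0.23 and -0.20. The median of the list was -1.49, or -0.91 when all probe sets of a gene were averaged. Among transcription factors of these genes, E2F8, MYBL2 at -1.68, E2F1 at -1.61, E2F7 at -1.32, LIN9 at -1.30 and E2F2 at -1.29 were past 2-fold, 6 of 15 in all. E2F4 at -0.068 and E2F5 at 0.21, which act with pocket proteins as repressors, were not, and the median of the list was -0.70. Of 6 measured CDK inhibitors and pocket proteins, RBL1, which encodes p107, was at -1.43 and CDKN1A, which encodes p21, at 1.21. CDKN1B at -0.42, CDKN1C at -0.41, CDKN2D at -0.19 and RB1 at 0.14 lay between.

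Mitotic genes were the lowest lists. All 16 measured kinesin and spindle genes were at least 2-fold lower, with a median of -2.11 (DMSO -0.24), from KIFC1 at -2.99, KIF14 at -2.77 and the spindle pole gene ASPM at -2.76 to ECT2 at -1.17. Of 19 kinetochore and centromere genes, 18 were past 2-fold (median -1.92, DMSO -0.24). They included SGO1, the protector of centromeric cohesion, at -2.92, the centromere chaperone HJURP at -2.66, CENPF at -2.55 and NDC80 at -2.22. The exception was CENPM at -0.97. Of 19 mitotic kinase and checkpoint genes, 17 were past 2-fold (median -1.88, DMSO -0.21), with CDCA8 of the passenger complex at -2.96, TTK at -2.25, BUB1 at -2.19 and PLK1 at -1.74. BUB3 at -0.37 and FZR1 at -0.14, the coactivator that keeps the anaphase-promoting complex active in G1, were not. A second PLK1 probe set, numbered on another chromosome, was at -0.69.

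Most chromosome structure genes were at least 2-fold lower, and those that were not encode subunits of core cohesin. MKI67, the proliferation marker, read 8.35 and 8.27 with DMSO and 7.83 and 5.46 with C646, and topoisomerase TOP2A read 8.80 and 8.50 with DMSO and 8.21 and 5.77 with C646. Both were lowest on the C646 array of 24 h and next lowest on that of 6 h. Condensin subunits NCAPH at -2.34 and, from a probe set numbered on another chromosome, NCAPD2 at -1.91 and the cohesin regulators CDCA5 at -2.67 and ESCO2 at -1.75 were past 2-fold. Core cohesin was less changed, with SMC1A past 2-fold at -1.20, SMC3 at -0.49, RAD21 at -0.40 and STAG2 at -0.0062. A second SMC3 probe set, numbered on another chromosome, was at -1.10 with C646 and -0.49 in DMSO. The list had 10 of 13 members past 2-fold and a median of -1.55.

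The promoters of a few of these genes are printed because the genes were lower together. Promoters came from RefSeq (GRCh38.p14), and the 250 bases before the annotated start were searched on both strands for words of known cell cycle elements. For the CHR element, which binds the MuvB complexes, the words were TTTGAA and TTCGAA. For E2F sites they were TTTCCCGC, TTTGGCGC, TTTCGCGC and TTTGCCGC, and no word of one element contains a word of another. The following 4 are the genes outside the histone families among 8 of the most changed cell cycle genes with a match; capitals mark E2F and CHR words in either orientation.
CDC25A: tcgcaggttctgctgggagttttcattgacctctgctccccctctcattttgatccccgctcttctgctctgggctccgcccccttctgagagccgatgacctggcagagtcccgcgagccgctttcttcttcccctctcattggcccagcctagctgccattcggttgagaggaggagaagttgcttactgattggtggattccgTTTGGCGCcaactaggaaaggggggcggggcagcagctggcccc
CDCA8: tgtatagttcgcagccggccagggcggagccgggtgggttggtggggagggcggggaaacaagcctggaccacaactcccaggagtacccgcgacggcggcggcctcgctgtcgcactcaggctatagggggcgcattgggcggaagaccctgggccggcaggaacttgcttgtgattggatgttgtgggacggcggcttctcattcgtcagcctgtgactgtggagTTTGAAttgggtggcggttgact
ASPM: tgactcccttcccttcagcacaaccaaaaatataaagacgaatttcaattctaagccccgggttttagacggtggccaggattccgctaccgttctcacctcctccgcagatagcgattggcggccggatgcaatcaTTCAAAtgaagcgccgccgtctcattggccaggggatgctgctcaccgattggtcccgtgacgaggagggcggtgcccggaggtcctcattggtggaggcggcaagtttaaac
CDCA5: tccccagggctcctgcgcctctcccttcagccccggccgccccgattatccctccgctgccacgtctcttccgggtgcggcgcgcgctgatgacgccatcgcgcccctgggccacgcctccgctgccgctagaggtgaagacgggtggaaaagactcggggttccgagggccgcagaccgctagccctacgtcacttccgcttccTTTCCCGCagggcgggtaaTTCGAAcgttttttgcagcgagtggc

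These promoters lie at chr3:48188418-48188667 on the minus strand for CDC25A, chr1:37692266-37692515 on the plus strand for CDCA8, chr1:197146670-197146919 on the minus strand for ASPM and chr11:65084041-65084290 on the minus strand for CDCA5. The E2F word of CDC25A begins 44 bases before the start, and that of CDCA5 45 bases before it. CHR words begin 23 bases before the start in CDCA8 and 26 in CDCA5, and 113 in ASPM, where the word is in the reverse orientation. Of the lower genes, 250 had a promoter in the table. Among these, 62 (24.8%) held a CHR word, against 9.68% of 8664 named genes and 13.1% of 61 higher genes. An E2F word was found in 34 (13.6%), against 4.37% and 3.28%. The shorter word CCAAT, which NF-Y binds, was found in 59.6% of promoters of lower genes, 34.9% of named genes and 31.1% of higher genes. Over all 27305 promoters in the table the shares were 14.6% for CHR, 2.79% for E2F and 33.0% for CCAAT. The lower genes include 21 replication-dependent histone genes, which were not set apart in these shares. Among histone genes, H2BC3, H1-5 and H3C2 had a CHR word and H2BC14 an E2F word. A match describes the letters in this window and does not show binding.

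Replication-dependent histone genes, which are transcribed in S phase, gave a median change of -1.37 (DMSO -0.10), with 21 of 32 at least 2-fold lower. All 32 were below 0, against 24 in DMSO. H3C12 read 8.55 and 8.14 with DMSO and 7.86 and 4.02 with C646, a change of -3.84. H2BC3 was at -3.68, H2BC14 at -3.58, the linker histone H1-5 at -3.22 and H3C2 at -3.07. H2BC3 read 9.36 and 9.29 with DMSO and 8.10 and 4.42 with C646, so it was below its vehicle already at 6 h. Others stayed near 0, with H2BC5 at -0.086, H4C8 at -0.17 and H2BC11 at -0.27. Copies of these genes are nearly identical, so the value of a single copy is uncertain.

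Histone chaperones and chromatin maintenance genes showed a median change of -1.07, with 10 of 19 past 2-fold. All 19 were below 0, against 16 in DMSO. ATAD2 was at -2.14, the remodeller HELLS at -1.82, the chaperone subunits ASF1B at -1.66, CHAF1A at -1.53 and CHAF1B at -1.44, and the Polycomb methyltransferase EZH2 at -1.50. The other core Polycomb genes were near 0, with SUZ12 at -0.25 and EED at -0.046. A second EZH2 probe set, numbered on another chromosome, was at -0.48 with C646 and 0.97 in DMSO. Among acetyltransferases and bromodomain readers, by contrast, the median was -0.098 over 16 genes and none was 2-fold lower. CREBBP, which encodes CBP, a target of the drug, read 6.64 and 6.75 with DMSO and 6.53 and 6.76 with C646, so its 4 values lay within a narrow range. EP300 had no probe set of its own. CITED2, which binds p300 and CBP, was the member past 2-fold, at 1.31. A second BRD8 probe set was at -1.56, where the brighter was at -0.21. Deacetylases lay around a median of 0.13, from HDAC4 at -0.16 to HDAC5 at 0.48.

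Homologous recombination and Fanconi genes gave a median change of -1.38 (DMSO -0.18), with 13 of 19 past 2-fold. RAD51AP1 was at -2.79, XRCC2 at -2.71, the nuclease EXO1 at -2.53, EME1 at -2.51, the helicase BLM at -2.20, BARD1 at -1.59 and BRCA1 at -1.32. RAD51C, at 0.37, was the member above 0. Damage kinases, end joining and mismatch repair genes changed less, with a median of -0.32 and 2 of 14 past 2-fold, MDC1 at -1.31 and MSH6 at -1.09. The checkpoint kinase CHEK1 was at -0.95, while TP53BP1 was at 0.22 and LIG4 at 0.14.

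**Figure D3:**
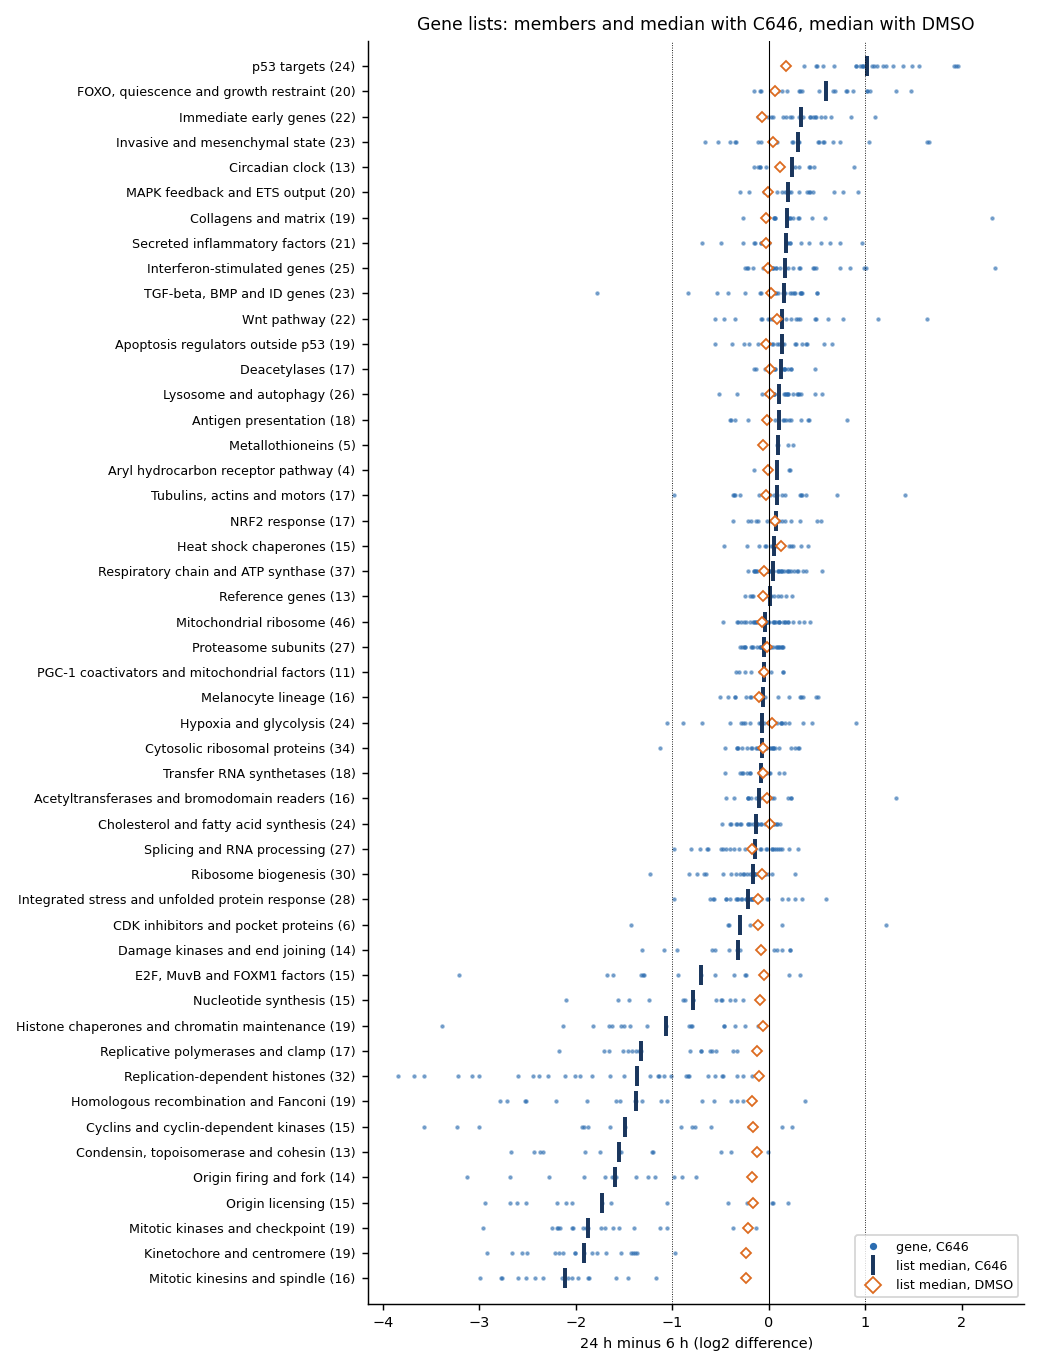
Change from 6 h to 24 h in the gene lists (number of measured genes in brackets), as log2 differences; points are genes with C646, dark bars are list medians with C646, open diamonds are list medians with DMSO, and dotted lines mark 2-fold. Medians with C646 run from -2.11 for mitotic kinesins to 1.02 for p53 targets, and medians with DMSO all lie near 0.

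Target genes of p53 were the list with the highest median, 1.02 against 0.17 in DMSO. All 24 measured members were above 0 and 12 were at least 2-fold higher, where 0.71% of all genes were; with the DMSO change subtracted 11 were, against 0.644%. MDM2 read 7.85 and 8.20 with DMSO and 7.76 and 9.68 with C646, and its second probe set, numbered on another chromosome, changed by 1.91 as well. The ectodysplasin receptor gene EDA2R read 7.11 and 7.55 with DMSO and 7.15 and 9.10 with C646. The C646 array of 24 h was the highest for both genes, with the DMSO array of 24 h next. CDKN1A, the p53 target that inhibits cyclin-dependent kinases, read 5.43 and 5.63 with DMSO and 5.27 and 6.48 with C646.

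The other members past 2-fold covered several roles of the p53 response. CYFIP2 was at 1.48, the autophagy gene TP53INP1 at 1.39, TP53I3 at 1.29, the polo-like kinase PLK2 at 1.18, TRIAP1 at 1.12, the cell death effector BAX at 1.09 and the RNA-binding protein gene ZMAT3 at 1.07. The ceramidase gene ACER2 was at 1.56 from a probe set numbered on another chromosome, and at 0.76 from the other. The least changed by their brightest probe sets were the BH3 gene PMAIP1 at 0.16 and CCNG1 at 0.37. A second CCNG1 probe set, numbered on another chromosome, was at 0.68 with C646 and 0.067 in DMSO. PHLDA3 read 7.23 and 6.78 with DMSO and 7.74 and 8.23 with C646, so that it was above both vehicle arrays already at 6 h. Apoptosis regulators outside this list showed a median change of 0.13, with BIRC2 at 0.66, BCL2L1 at 0.57 and CASP2 at -0.56, none past 2-fold.

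Genes of growth restraint and quiescence, many of them FOXO targets, lay around a median of 0.59 (DMSO 0.065), with 5 of 20 past 2-fold. Of the 20, 17 were above 0, against 11 in DMSO and 52.7% of all named genes with C646. FBXO32, a ubiquitin ligase gene induced in atrophy, read 6.42 and 5.98 with DMSO and 6.48 and 7.95 with C646. Its DMSO change was -0.44, so the arrays of 24 h lay on opposite sides of those of 6 h. YPEL2 was at 1.05, the thioredoxin inhibitor TXNIP at 1.02 and the repressor BCL6 at 1.02, beside CITED2. A second YPEL2 probe set was at 0.80. With the DMSO change subtracted, FBXO32 and YPEL2 stayed past 2-fold, and CITED2 at 0.98, BCL6 at 0.77 and TXNIP at 0.73 did not. Without the filter on low values the median of the list was 0.34. SESN3 at -0.15 and the insulin receptor gene INSR at -0.087 were below 0.

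**Figure D4:**
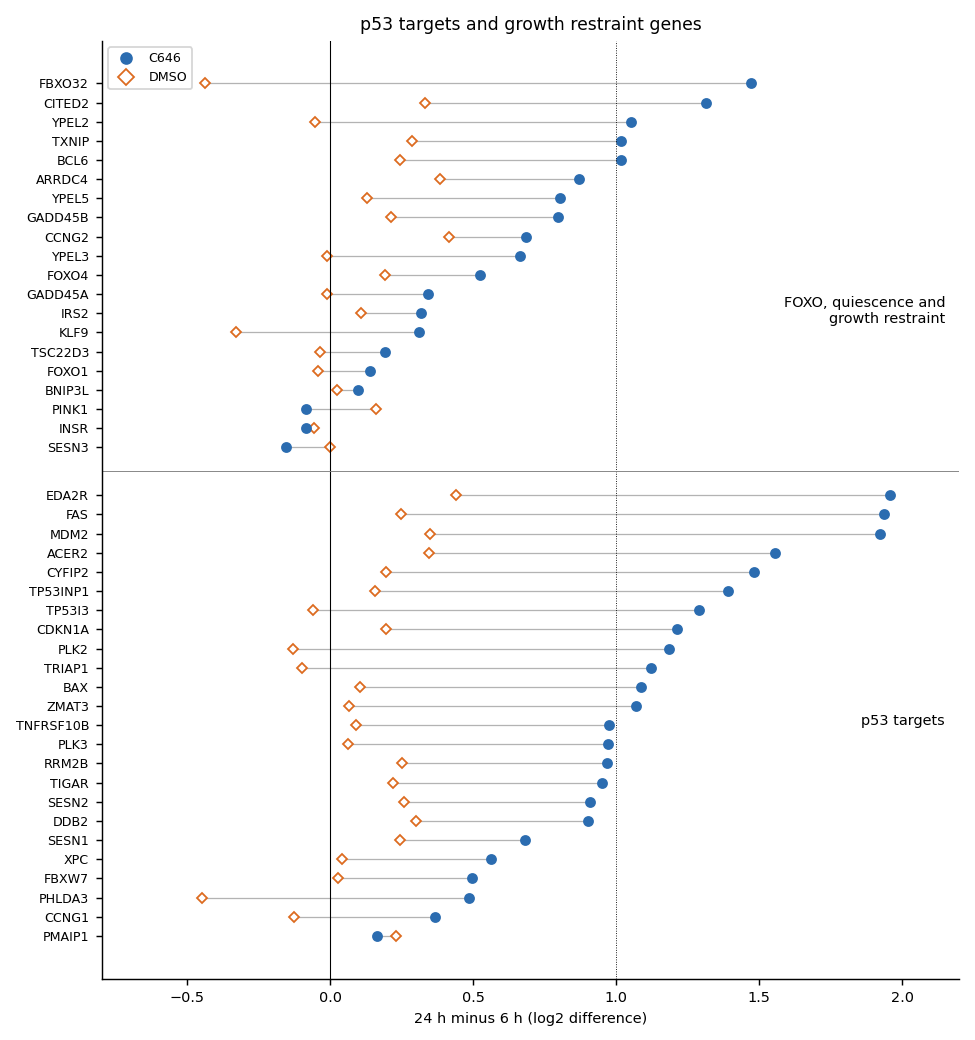
Change from 6 h to 24 h of the 24 measured p53 targets (lower block) and the 20 measured growth restraint genes (upper block), as log2 differences; filled circles are C646, open diamonds are DMSO, grey lines join both values of a gene, and the dotted line marks 2-fold. All p53 targets lie right of 0 with C646, 12 of them past 2-fold, and PMAIP1 is the p53 target whose DMSO value is the higher.

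Several of the highest genes were outside the lists described so far. SULF2, a secreted sulfatase that edits heparan sulfate, read 4.41 and 4.51 with DMSO and 4.35 and 6.67 with C646. The long noncoding RNA PURPL read 3.79 and 3.96 with DMSO and 4.12 and 6.36 with C646, and PRSS35, a protease-like gene, read 4.04 and 3.74 with DMSO and 4.31 and 6.25 with C646. For these genes 3 arrays lay near the filter level and the C646 array of 24 h lay well above it. DNAI3, an axonemal dynein component, was at 1.87, FAM169A-AS1 at 1.74, REP15 at 1.81 and DKK1, a secreted Wnt antagonist, at 1.64. TRIM22, an interferon-inducible gene that is also a p53 target, read 5.27 and 5.93 with DMSO and 5.53 and 7.87 with C646.

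Some of the highest genes were higher at 24 h with the vehicle too. PCLO, a presynaptic scaffold gene, read 5.64 and 6.90 with DMSO and 5.68 and 8.22 with C646, and its other probe sets were at 2.40 and 1.32 with C646 and at 1.10 and 0.31 with DMSO. PTCHD4, which encodes a patched-domain protein, read 4.75 and 6.44 with DMSO and 5.11 and 7.57 with C646. By their brightest probe sets these were the 2 genes at least 2-fold higher under both treatments, and no gene was at least 2-fold lower under both. For PTCHD4 the DMSO change of 1.68 left 0.77 of the C646 change of 2.45. Its second probe set was at 1.62 with C646 and 0.36 with DMSO, so that probe set was past 2-fold with C646 only. The choline transporter gene SLC44A2 was at 1.60 and 0.74, PCDH18 at 1.60 and 0.81 and HSPA4L, a heat shock protein family gene, at 1.07 and 0.95, with C646 and DMSO respectively.

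For another group of genes, the change from 6 h to 24 h started from a C646 array of 6 h that differed from its vehicle. The death receptor gene FAS read 6.29 and 6.54 with DMSO and 5.83 and 7.77 with C646, and the matricellular gene CCN1 read 7.24 and 7.70 with DMSO and 6.71 and 8.38 with C646. REP15 read 5.47 and 5.04 with DMSO and 4.53 and 6.33 with C646. These genes were lowest on the C646 array of 6 h and highest on that of 24 h. TPM2, a tropomyosin gene, followed the same order, at 7.02 and 7.19 with DMSO and 6.46 and 7.87 with C646. In the other direction, ID1, an inhibitor of basic helix-loop-helix factors, read 6.64 and 6.14 with DMSO and 7.36 and 5.57 with C646. ID3 read 5.93 and 6.07 with DMSO and 7.07 and 6.23 with C646, and so was back near the vehicle level at 24 h. HK2, the hexokinase gene, was at -1.06 from a probe set numbered on another chromosome and at -0.66 from the other.

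Most signalling, matrix and immune genes changed by less than 2-fold with C646. Immediate early genes gave a median change of 0.33 (DMSO -0.074), with 18 of 22 above 0 and each of the 22 changes above its DMSO value, as was the case for 54.8% of all named genes. FOS was past 2-fold at 1.10, with FOSL2 at 0.85, KLF6 at 0.65, JUNB at 0.58 and JUN at 0.49. EGR3 changed little with C646, at 0.17, but by -1.02 in DMSO. MAPK feedback genes showed a median change of 0.20, with DUSP1 at 0.92, EPHA4 at 0.76 (0.51 in DMSO) and DUSP5 at -0.30. Invasive and mesenchymal genes lay around a median of 0.30, with CCN1, DKK1 and CCN2 at 1.04 past 2-fold, WNT5A at 0.74, and SNAI1 at -0.66 and MMP1 at -0.53 on the lower side. With the DMSO change subtracted, CCN1 at 1.21 and DKK1 at 1.39 stayed past 2-fold and CCN2 at 0.82 did not. SNAI1 and MMP1 were at -0.69 and -0.44 in DMSO.

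Matrix and integrin genes gave a median change of 0.19 with 17 of 19 above 0, against 7 of 19 in DMSO. Over all named genes, 52.7% were above 0 with C646 and 45.3% in DMSO. SULF2 was the member past 2-fold, followed by COL6A1 at 0.58 and COL4A1 at 0.44. TGF-beta, BMP and ID genes showed a median change of 0.15, with ID1 at -1.78 the member past 2-fold. The ID genes ID3 at -0.84, ID4 at -0.43 and ID2 at -0.25 were below 0, whereas ACVR1 at 0.50 and BMP4 at 0.49 were above. In the Wnt list the median was 0.13, with the receptor FZD2 at 1.13 and DKK1 past 2-fold, the feedback gene AXIN2 at 0.77 and FZD1 at -0.56. A second FZD2 probe set was at 0.64, and the first was at 0.89 with the DMSO change subtracted. Interferon-stimulated genes lay around a median of 0.16 (0.31 when filtered at the 60th percentile), and 19 of 25 were above 0, against 12 of 25 in DMSO. TRIM22 and OAS2 at 1.01 were past 2-fold, with the RNA sensor RIGI at 0.98, IRF9 at 0.74 and OAS3 at -0.22. With the DMSO change subtracted, OAS2 was at 0.80 and 1 member of the list stayed past 2-fold. Of antigen presentation genes 10 of 18 were above 0, near the 52.7% of all genes, and the median was 0.10 (0.028 with the filter at the 60th percentile), with the peptide transporter TAP1 at 0.81 and CIITA at -0.40. Of secreted inflammatory factors 12 of 21 were above 0, also near that share, and the median was 0.18 (0.091 with the filter at the 60th percentile), with TNFAIP3 at 0.97, CCL2 at 0.73 from a probe set numbered on another chromosome, and STC1 at -0.69.

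The lineage, metabolic, stress and translation lists had few members past 2-fold. Melanocyte genes lay around a median of -0.061 (DMSO -0.10), with none past 2-fold. MITF, the lineage factor, read 6.81 and 6.47 with DMSO and 7.60 and 7.37 with C646, so that both C646 arrays were above both vehicle arrays and the change between the times was -0.23. S100B read 8.77 and 8.39 with DMSO and 9.38 and 9.88 with C646, in the same order of treatments. MLPH at -0.51 and SLC45A2 at -0.42 were the lowest and PAX3 at 0.49 was next below S100B at 0.50.

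Over all named genes, 52.7% were above 0 with C646 and 45.3% in DMSO. Ribosome biogenesis genes gave a median change of -0.16 with 28 of 30 below 0, against -0.073 and 22 of 30 in DMSO. NOP56 was past 2-fold at -1.23, from a probe set numbered on another chromosome, followed by TCOF1 at -0.83 and RRS1 at -0.75, the latter at -0.65 in DMSO. Integrated stress response genes showed a median change of -0.22 with 23 of 28 below 0, against -0.12 and 21 of 28 in DMSO, and -0.12 with the mean of the other 3 arrays as the baseline. The lowest member was MTHFD2, a mitochondrial folate enzyme gene, at -0.99, while PPP1R15A was at 0.60 and DDIT3 at 0.34. Splicing genes lay around a median of -0.14, close to -0.17 in DMSO, with TRA2B at -0.99 with C646 and -1.30 with DMSO and SRSF7 at -0.80 and -0.51. A second TRA2B probe set was at -0.37 with C646 and -0.35 with DMSO. Sterol and fatty acid enzymes gave a median change of -0.13, with 18 of 24 below 0, against 11 of 24 in DMSO, and FASN at -0.49. A second FASN probe set, numbered on another chromosome, was at -1.21 with C646 and -0.74 in DMSO. Glycolysis and hypoxia genes showed a median change of -0.066, with PDK1 at -0.89 and NDRG1 at 0.90 beside HK2. Medians were 0.039 for the respiratory chain, -0.037 for the mitochondrial ribosome, -0.071 for cytosolic ribosomal proteins, -0.077 for transfer RNA synthetases, -0.051 for the proteasome and 0.11 for lysosome and autophagy genes. In the cytosolic ribosome RPL22 was at -1.13 from a probe set numbered on another chromosome and at -0.25 from the right one. Medians were 0.073 for NRF2 targets, 0.049 for heat shock chaperones, 0.090 for 5 metallothioneins, 0.089 for 4 aryl hydrocarbon receptor genes, -0.054 for PGC-1 and mitochondrial factors and 0.24 for clock genes (0.12 in DMSO, and 0.11 with C646 without the filter), where CIART was at 0.88 and 0.54 with C646 and DMSO. Tubulins, actins and motors lay around a median of 0.079, with TPM2 past 2-fold at 1.41, TPM1 at 0.71 and STMN1, a tubulin-binding protein gene, at -0.98. Reference genes gave a median change of 0.016, with ACTB at 0.051 and GAPDH at -0.0093. The few measured markers of other cell types had medians between -0.051 and 0.15.

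Several genes changed more over time in DMSO than with C646. FYN, a Src family kinase gene, read 5.45 and 7.36 with DMSO and 5.77 and 6.73 with C646. Its probe set is numbered on another chromosome and the other one, on the right chromosome, was at -0.023 and -0.12 with DMSO and C646. MYLK, myosin light chain kinase, read 4.51 and 5.65 with DMSO and 4.44 and 4.74 with C646, so that the DMSO array of 24 h was the high one. The phospholipase gene DDHD1 read 5.85 and 6.87 with DMSO and 5.02 and 5.01 with C646. Other MYLK probe sets were at 0.067 and 0.0088 in DMSO, while those of DDHD1 ranged from -0.11 to 0.78 there. On the lower side, MAP3K9, a mixed lineage kinase gene, read 8.08 and 6.52 with DMSO and 7.74 and 6.98 with C646, with a second probe set at -2.16 in DMSO and -1.08 with C646. PRICKLE1 read 6.38 and 5.36 with DMSO and 6.53 and 6.82 with C646, so that the DMSO array of 24 h alone was low.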

How the data were processed

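Total RNA of WM35 cells was labelled from 100 ng per sample and hybridised to Affymetrix GeneChip Human Exon 1.0 ST arrays, 1 array for each of 4 conditions, per the labels' protocols. The deposited values are log2 expression values of 27631 gene-level probe sets, as the authors made them; their range shows the log2 scale. The submitters' processing notes name the build hg19, and how the arrays were summarised and normalized is not given there or in the labels. For arrays, their number limits the precision.

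In the platform annotation 20429 probe sets have 1 symbol, 4232 have several and 2970 have none, and 20362 of the first kind were updated through Entrez identifiers with a RefSeq table of GRCh38.p14. Probe sets with a mean at or above the 40th percentile (3.96) were kept, and the brightest probe set stood for a gene. The means just inside and just outside that limit were 3.9607 and 3.9606. Probe set numbers follow genome order, so each was compared with its 25 neighbours on either side to see whether it lay among those of its gene's chromosome; 7.60% of 20358 placed probe sets did not.

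Differences were taken array against array in Python 3.11.15 with pandas 2.3.3, counted at 2-fold, and given no test. The calculation was tested on simulated data. Named genes were the 15 highest and 15 lowest C646 changes, the 10 at each end of the C646 change minus the DMSO change, the 6 at each end in DMSO, genes at 0.5 or more in opposite directions, and of 53 gene lists the 4 highest and 4 lowest members and all past 2-fold, with CREBBP and EP300; the text uses part of these. Small RNA genes and LOC symbols were left out. The members and lists were chosen with earlier results of these data known. Alternatives were the filter, the scaling, the choice of probe set and, chosen after seeing the data, the baseline.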

Additional observations from a re-analysis of the deposited data

Results flagged for a closer look

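For 9 genes the change from 6 h to 24 h ran in opposite directions with C646 and with DMSO, by at least 0.5 on the log2 scale each way; with 1 array per condition the difference was not tested. H3C2, a histone H3 gene, was at -3.07 with C646 and 0.74 with DMSO, a difference of -3.82. It read 8.10 and 8.84 with DMSO and 9.10 and 6.02 with C646, so the treatments already differed at 6 h. On the lower side with C646 were also IBA57, an iron-sulfur cluster assembly gene (difference -1.45), the potassium channel gene KCNQ5 (-1.42), and the antisense RNAs NCAM1-AS1 (-1.31) and OR2W1-AS1 (-1.19). NCAM1-AS1 read 3.51 and 4.16 with DMSO and 4.56 and 3.90 with C646, values near the filter level. Its C646 array lay further from DMSO at 6 h (1.05) than at 24 h (-0.25). On the higher side were ZNRD2-DT, a divergent transcript (2.37), the actin-like gene ACTBL2 (2.03), the methyltransferase-family gene SETDB2 (1.72) and the pseudogene PI4KAP2 (1.49). ACTBL2 read 6.23 and 5.62 with DMSO and 5.27 and 6.70 with C646, so its treatments also differed at 6 h. The probe sets of a gene did not always show the same. A second ZNRD2-DT probe set was at 1.20 with C646 and -0.77 with DMSO. Second probe sets of SETDB2, at 0.14 and -0.064, and of PI4KAP2, at 0.046 and -0.078, were close to 0 with either treatment. Other KCNQ5 probe sets changed by no more than 0.20 in size.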

How the results depend on the processing

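Counts of probe sets past 2-fold stayed within 1.5 times of those given under each alternative that could be computed for them. With C646, the lower count ranged from 364 with the filter at the 60th percentile to 412 with arrays centred on their medians, and the higher count from 109 to 151, the latter with no filter. No named gene past 2-fold and no list median of at least 0.080 in size changed direction where it had a value. Smaller values were not counted in this, and some list medians nearer 0 changed sign. Melanocyte genes, for example, went from -0.061 to 0.26 with the mean of the 3 other arrays as the baseline. Quantile normalization and median centring moved the median of all probe sets by less than 0.1 and no list median by more than 0.056. Averaging the probe sets of a gene moved 6 of 53 list medians and 53 of 517 named genes beyond 0.080, the median absolute DMSO change, and the largest list shift, for cyclins and their kinases, ended at -0.91. Leaving out the filter moved 6 list medians and setting it at the 60th percentile moved 11. Histones went from -1.37 to -1.15 and -1.96, growth restraint genes from 0.59 to 0.34 and 0.80, and, without the filter, clock genes from 0.24 to 0.11 and CDK inhibitors and pocket proteins from -0.30 to -0.11. Keeping only probe sets numbered on their gene's chromosome moved 3 lists and 21 named genes, and 9 had no value. With the mean of the 3 other arrays as the baseline, an alternative chosen after seeing the data, 19 lists and 318 named genes moved; mitotic kinesins were at -2.39 and melanocyte genes at 0.26. No array could be left out, since each condition has 1. No paired analysis was possible because the conditions have 1 array each and carry no replicate numbers.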
